A study of Homo sapiens with 18 samples.

Results

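The p53 family and the proteins that hold p53 in check were followed here through 5 genes: TP63 and TP73, the p53 paralogs, and MDM2, MDM4 and PPM1D, the negative regulators. The members were the entries of the count tables whose gene symbol equals one of these 5 names, out of 40916 symbols, and no measured value entered that choice. Each symbol occurred once in every table.

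The study sequenced poly(A) RNA of cultured human cells in 18 libraries, 3 biological replicates in each of 6 groups. MCF10A cells, mammary epithelium that is immortal but not transformed, carried an H2B-GFP reporter and were grown with horse serum, EGF, hydrocortisone, cholera toxin and insulin. HCT116 cells, from a colorectal carcinoma, carried no label, were described as p53-null and were grown in McCoy's 5A medium with fetal bovine serum. Mixed cultures were described as equal parts of both lines, and their medium is not stated. Each of the 3 cultures was compared without irradiation (NIR) and after 10 Gy (IR). Harvest was at day 2 by the titles of the samples, but at 72 h after irradiation by the series description. The MCF10A line differs from HCT116 in tissue, p53 description, reporter and medium at once, so that these cannot be told apart in any comparison of the lines.

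p53 is a transcription factor that DNA damage stabilises and that switches on genes of cell-cycle arrest, repair and cell death. TP63 and TP73 encode transcription factors with a closely related DNA-binding domain: TP63 maintains the basal layer of stratified and glandular epithelia, while TP73 is best known from multiciliated cells and neurons. MDM2 is the ubiquitin ligase that marks p53 for degradation, MDM4 is its partner that binds and silences p53, and PPM1D is a phosphatase (also called WIP1) that removes damage-induced phosphates from p53 and its upstream kinases. MDM2 and PPM1D are themselves p53 target genes and so close feedback loops. Gene counts do not separate the isoforms of TP63 or TP73 that carry or lack the transactivation domain.

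Library totals lay between 25.7 M and 40.8 M counts (M, 1e+06), and levels are given as CPM, the share of all counts in a library that fell on the gene, times 1e+06. Low counts were mostly even (68.3% of the values from 1 to 10), whether mates of a read pair were counted singly is not stated, and all counting intervals and floors below cover counting error only. The basal mammary marker list was present in full in MCF10A (10 of 10 genes at 1 CPM or more, summed level 9540 to 10215 CPM without irradiation and 18522 to 19273 CPM after 10 Gy). In HCT116, 5 of 10 reached 1 CPM without irradiation (589 to 647 CPM summed) and 8 of 10 after 10 Gy (745 to 794 CPM). The summed level thus set the lines apart more than the number of genes did. The intestinal list was thin in HCT116, with 3 of 10 genes at 1 CPM or more and CDX1 and ASCL2 at 0, against 1 of 10 in MCF10A. Of the 5 fibroblast and immune markers, 1 reached 1 CPM in each group. The mixed libraries went against their description: genes specific to MCF10A stood at a median of 0.404% of their MCF10A level in the NIR mixtures (123 genes) and 1.20% in the IR mixtures (140 genes). In terms of RNA the mixed cultures were therefore close to HCT116 cultures, and in bulk RNA fewer cells of a type and less RNA per cell cannot be told apart. The MCF10A-specific genes could hold any level under 1 CPM in HCT116 libraries, which was not subtracted, and the genes differ between NIR and IR. How much of the higher IR median is RNA of MCF10A cells was not tested.

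**Figure D1:**
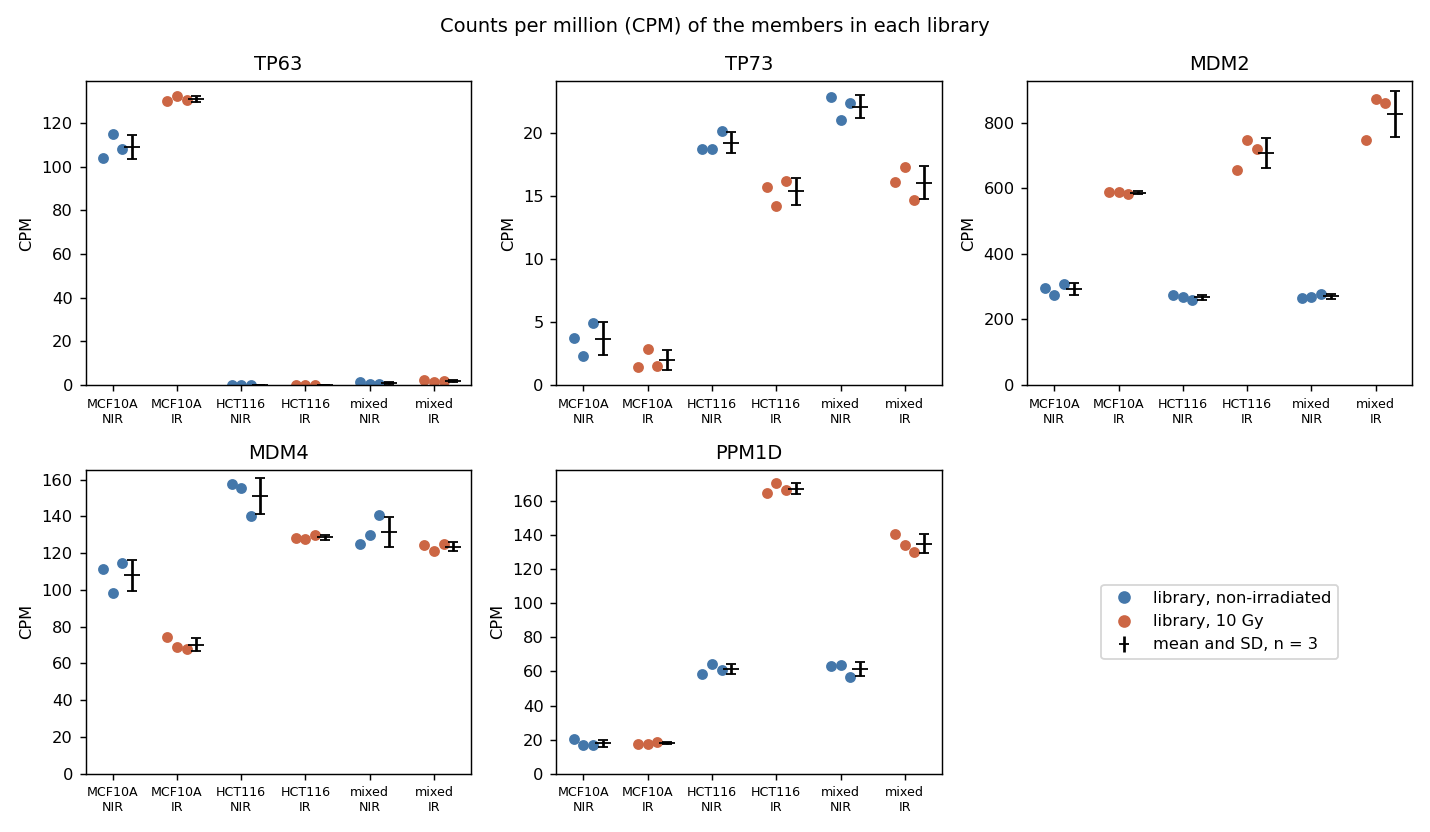
CPM (linear axis from 0) of TP63, TP73, MDM2, MDM4 and PPM1D in each of the 18 libraries, with the mean and SD of 3 libraries beside each group. TP63 is confined to the MCF10A groups apart from traces, MDM2 is high in all irradiated libraries, and PPM1D is high only in irradiated HCT116 and mixed libraries.

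After 10 Gy, MDM2 rose in all 3 cultures, PPM1D rose in HCT116 and mixed cultures, and TP73 fell in all 3. Of the 5 members tested in MCF10A, 4 passed the test (edgeR quasi-likelihood, Benjamini-Hochberg adjusted p under 0.05): 2 were higher and 2 were lower. The irradiation moved much of the transcriptome there, since 55.4% of all genes tested passed, 26.2% higher and 29.2% lower. In HCT116 all 4 members tested passed, beside 52.5% of all genes (25.3% higher and 27.2% lower). In mixed cultures 4 of 5 passed, beside 49.4% of all genes (24% higher and 25.4% lower). With such backgrounds the counts of members alone say little, and the sizes of the changes carry the description.

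Between the lines, 5 of 5 members differed without irradiation, beside 74.8% of all genes, and 4 of 5 differed after 10 Gy, beside 74.9% of all genes. Mixed cultures differed from HCT116 in 1 of 5 members without irradiation, beside 2.04% of all genes, and in 3 of 5 after 10 Gy, beside 8.56%. These comparisons share libraries: HCT116 serves in those with MCF10A and in those with the mixed cultures.

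TP63, at chr3:189631416-189897279 on the plus strand of GRCh38 (GENCODE 29), was a gene of MCF10A. Its level was 104, 115 and 108 CPM in the NIR libraries and 129.9, 132.6 and 130.5 CPM in the IR libraries of that line. All 3 irradiated libraries lay above all 3 controls. The rise was 1.18-fold (log2 fold change 0.24, SE 0.050, adjusted p = 0.00014), from 109 ± 5.65 to 131 ± 1.41 CPM (SD, n = 3).

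In HCT116, TP63 had no count in any NIR library, and 4 counts in a single IR library (0.0979 CPM). Against a floor of 3 counts over the 3 HCT116 libraries, TP63 was at least 3428-fold higher in NIR MCF10A, or at least 1714-fold if counts are halved. After 10 Gy the ratio was 3255 (95% exact Poisson interval 1271 to 11948, or 901 to 26879 if counts are halved). TP63 could not be tested for an irradiation response in HCT116, as it did not pass the filter on low counts there.

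Mixed cultures held traces of TP63. The NIR mixtures gave 36, 24 and 24 counts, or 1.29, 0.692 and 0.667 CPM, and the IR mixtures gave 84, 58 and 72 counts, or 2.38, 1.55 and 1.99 CPM. The groups did not overlap, and every mixed library lay above every HCT116 library. The irradiated mixtures were 2.22-fold higher (log2 fold change 1.15, SE 0.35, adjusted p = 0.0092). Without the first IR mixture the change was 0.98 and missed the threshold (adjusted p = 0.054).

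Relative to the MCF10A level of the same treatment, TP63 in the mixtures amounted to 1.18%, 0.635% and 0.612% without irradiation and 1.82%, 1.18% and 1.52% after 10 Gy. The means were 0.810 ± 0.323% and 1.51 ± 0.317% (SD, n = 3), a difference of 0.696 percentage points. An exact 2-sided permutation test gave p = 0.1, the smallest that 3 against 3 libraries allow. All 6 values lay above the medians of the MCF10A-specific genes in the same libraries, which were 0.473%, 0.354% and 0.383% without irradiation and 1.22%, 1.14% and 1.24% after 10 Gy. TP63 was also the member called between NIR mixtures and NIR HCT116 (adjusted p = 0.00079) and was called between the irradiated ones (adjusted p = 4.1e-07). No fold is given for the first, since HCT116 stood at 0.

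TP73, at chr1:3652520-3736201 on the plus strand, showed the opposite order of the lines at far lower counts. In MCF10A it stood at 3.76, 2.31 and 4.92 CPM without irradiation and at 1.47, 2.88 and 1.53 CPM after 10 Gy. The groups overlapped, since the middle IR library lay above the lowest control. In HCT116 the NIR libraries held 18.7, 18.7 and 20.2 CPM and the IR libraries 15.7, 14.2 and 16.2 CPM, without overlap. Mixed libraries held 22.9, 21.1 and 22.3 CPM and then 16.1, 17.3 and 14.7 CPM, again without overlap.

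TP73 fell in each culture after 10 Gy. The log2 fold change was -0.92 in MCF10A (SE 0.29, adjusted p = 0.0076), -0.32 in HCT116 (SE 0.10, adjusted p = 0.014) and -0.49 in mixed cultures (SE 0.097, adjusted p = 0.00025). The MCF10A call rests on few counts and was lost without the third NIR library (-0.66, adjusted p = 0.088), the first IR library (-0.76, adjusted p = 0.051) or the third IR library (-0.76, adjusted p = 0.052). The HCT116 call was lost without the third NIR library (adjusted p = 0.053), without the second IR library (adjusted p = 0.067) and in the fit of all 18 libraries together (adjusted p = 0.12). HCT116 exceeded MCF10A 4.61-fold without irradiation (log2 difference 2.21, SE 0.19, adjusted p = 6.7e-09) and 6.72-fold after 10 Gy (2.75, SE 0.19, adjusted p = 1.5e-12). The antisense gene TP73-AS1, which shares 633 exon bases with TP73, was at or near 0 in every group. As the strand setting of the counting is not stated, reads in that stretch cannot be assigned to a gene.

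MDM2, at chr12:68808176-68850686 on the plus strand, was the member with the most counts. MCF10A held 295, 273 and 309 CPM without irradiation and 589, 590 and 581 CPM after 10 Gy. HCT116 held 275, 267 and 259.8 CPM and then 655, 747 and 720 CPM. Mixed cultures held 265, 267 and 279 CPM and then 746, 873 and 858 CPM. In each culture every irradiated library lay far above every control, and the 9 controls of the 3 cultures spanned the narrow range from 259.8 to 309 CPM.

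The rise of MDM2 was 1.98-fold in MCF10A (log2 fold change 0.98, SE 0.042, adjusted p = 2.9e-17), 2.66-fold in HCT116 (1.41, SE 0.059, adjusted p = 5.2e-15) and 3.00-fold in mixed cultures (1.58, SE 0.060, adjusted p = 1.5e-14). MDM2 thus rose in the line described as p53-null as well as in MCF10A, and more steeply there. The difference of responses, HCT116 minus MCF10A, was 0.35 on the log2 scale (SE 0.072, adjusted p = 0.00037). MDM2 shares exon bases with 3 other annotated genes: 785 with the antisense gene AC025423.4, 439 with the pseudogene AC025423.2 on the same strand, and 133 with the carboxypeptidase M gene on the opposite strand, whose group means did not exceed 19.5 CPM. The strand setting of the counting is not stated, so reads in these stretches cannot be assigned to a gene.

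Without irradiation MDM2 was lower in HCT116 than in MCF10A (log2 difference -0.33, SE 0.053, adjusted p = 2.3e-05). The difference lay between -0.39 and -0.13 over the alternatives, and -0.13 came from scaling by upper quartile or by library total alone. After 10 Gy no difference between the lines was detected under TMM scaling (0.04, SE 0.048, 95% interval -0.05 to 0.13, adjusted p = 0.46), although the CPM ranges did not overlap. Upper-quartile scaling gave 0.22 (adjusted p = 0.00021) and scaling by library total 0.27 (adjusted p = 1.7e-05). These scalings also moved the median of all genes in that comparison, by 0.18 and 0.23.

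The MDM2 promoters are shown because this gene has a known p53-responsive start inside its first intron and was the member that rose in all cultures. The 250 bases before RefSeq starts (GRCh38.p14, plus strand, 5′ to 3′) were searched for the p53 half-site consensus, a motif of 10 bases that is its own reverse complement, so that a single pass covers both strands. No member held an exact match. A search that allows 1 mismatch outside the central 4 bases was chosen after that result was known, and capitals mark its matches.
MDM2 upstream start, chr12:68807927-68808176: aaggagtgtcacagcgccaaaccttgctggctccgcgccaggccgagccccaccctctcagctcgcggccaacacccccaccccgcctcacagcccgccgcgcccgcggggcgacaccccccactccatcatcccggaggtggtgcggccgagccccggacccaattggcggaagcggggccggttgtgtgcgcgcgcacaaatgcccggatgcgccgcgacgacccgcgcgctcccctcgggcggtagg
MDM2 downstream start, chr12:68808774-68809023: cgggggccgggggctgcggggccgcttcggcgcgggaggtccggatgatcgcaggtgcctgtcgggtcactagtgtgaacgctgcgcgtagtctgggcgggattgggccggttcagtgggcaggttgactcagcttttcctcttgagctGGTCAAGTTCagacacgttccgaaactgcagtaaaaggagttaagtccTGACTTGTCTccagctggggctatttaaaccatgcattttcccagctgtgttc
PPM1D, chr17:60599943-60600192: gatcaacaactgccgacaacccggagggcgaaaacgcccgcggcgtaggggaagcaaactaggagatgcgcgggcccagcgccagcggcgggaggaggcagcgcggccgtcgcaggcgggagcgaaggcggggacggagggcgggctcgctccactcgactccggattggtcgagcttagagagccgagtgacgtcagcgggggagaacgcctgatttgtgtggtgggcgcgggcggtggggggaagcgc
MDM4, chr1:204516156-204516405: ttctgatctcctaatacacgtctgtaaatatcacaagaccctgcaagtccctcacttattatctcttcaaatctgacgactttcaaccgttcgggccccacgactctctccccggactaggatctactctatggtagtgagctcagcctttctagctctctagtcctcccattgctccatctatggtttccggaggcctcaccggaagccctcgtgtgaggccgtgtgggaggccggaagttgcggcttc

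The downstream MDM2 window held 2 half-sites with 1 mismatch each, beginning 101 and 53 bases before the start, and the upstream MDM2, PPM1D and MDM4 windows held none. Such matches were not limited to MDM2: of the TP73 windows, not printed here, the one at chr1:3697796-3698045 held 2, beginning 236 and 232 bases before its start, and the one at chr1:3690422-3690671 held 1, beginning 76 bases before. Among 35116 promoter windows of the same length, 5.57% held an exact half-site, 28.0% held at least 1 with up to 1 mismatch, and 5.00% held 2 or more. A match describes letters and does not by itself show binding, and a window without one says only that these letters are missing from it. The upstream MDM2 window had 74.4% G and C and 33 CpG dinucleotides, against 59.2% and 17 in the downstream one and a median of 58% and 11 over all windows. Counts per gene do not tell which start the MDM2 transcripts used.

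MDM4, at chr1:204516379-204558120 on the plus strand, moved against MDM2. MCF10A held 111, 98.3 and 114 CPM without irradiation and 74.3, 68.7 and 67.7 CPM after 10 Gy. HCT116 held 158, 155 and 140.1 CPM and then 128.1, 127.9 and 130.1 CPM. Both lines thus lay lower after irradiation without overlap. Mixed cultures held 125, 129.8 and 141 CPM and then 125, 121 and 125 CPM, where the lowest control lay just under the highest irradiated library, so that the groups overlapped.

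MDM4 fell by 0.64 on the log2 scale in MCF10A (SE 0.057, adjusted p = 1.7e-10) and by 0.22 in HCT116 (SE 0.060, adjusted p = 0.0032). In mixed cultures the change of -0.12 missed the threshold (SE 0.060, adjusted p = 0.11). It passed without the first NIR mixture (-0.17, adjusted p = 0.035). The responses of the lines differed by 0.34 (SE 0.084, adjusted p = 0.0021). HCT116 lay above MCF10A by 0.29 without irradiation (SE 0.063, adjusted p = 0.00048) and by 0.64 after 10 Gy (SE 0.054, adjusted p = 4.8e-11).

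PPM1D, at chr17:60600183-60666280 on the plus strand, was higher in HCT116 and mixed cultures than in MCF10A. In MCF10A the level was 20.1, 16.7 and 16.6 CPM without irradiation and 17.5, 17.5 and 18.4 CPM after 10 Gy, and the groups overlapped. The NIR libraries of HCT116 held 58.7, 64.5 and 60.7 CPM and its IR libraries 165, 171 and 166 CPM. Mixed cultures held 63.4, 64.0 and 56.8 CPM and then 141, 134 and 129.7 CPM. Every irradiated HCT116 library lay above every irradiated mixture.

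In MCF10A no change of PPM1D was detected (log2 fold change -0.02, 95% interval -0.22 to 0.17, adjusted p = 0.86). It rose 2.74-fold in HCT116 (log2 fold change 1.46, SE 0.062, adjusted p = 7.4e-15) and 2.16-fold in mixed cultures (1.11, SE 0.066, adjusted p = 1.1e-11). The responses of HCT116 and MCF10A differed by 1.40 on the log2 scale (SE 0.10, adjusted p = 5.3e-11). PPM1D was 2.99-fold higher in HCT116 than in MCF10A without irradiation (1.58, SE 0.087, adjusted p = 1.3e-11) and 8.00-fold higher after 10 Gy (3.00, SE 0.061, adjusted p = 3.5e-24).

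**Figure D2:**
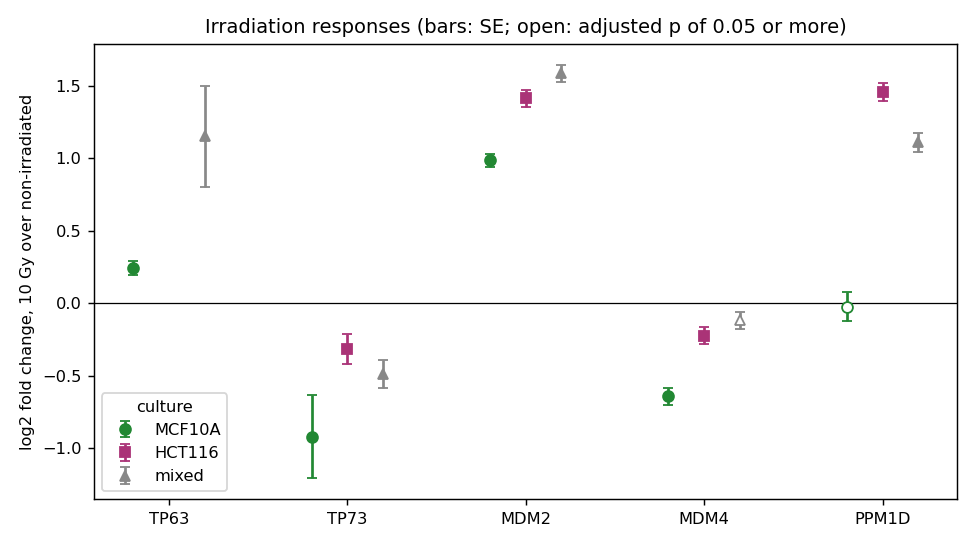
Log2 fold change of each member, 10 Gy over non-irradiated, in MCF10A, HCT116 and mixed cultures, with bars for the SE of 3 against 3 libraries and open symbols for an adjusted p of 0.05 or more. MDM2 lies above 0.98 in all 3 cultures, whereas PPM1D is at -0.02 in MCF10A and at 1.46 in HCT116, and TP63 has no value in HCT116.

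Of the 5 members, 3 responded differently in HCT116 and MCF10A, namely MDM2, MDM4 and PPM1D, beside 37.3% of all genes. The median difference of all genes was -0.10, and all 3 members lay above 0. TP73 gave 0.53 (SE 0.30, 95% interval -0.05 to 1.11, adjusted p = 0.18). It passed without the low-count filter (0.63, adjusted p = 0.036), without the second NIR library of MCF10A (0.78, adjusted p = 0.026) and without the second IR library of MCF10A (1.01, adjusted p = 0.0090). For TP63 a difference of responses has no meaning, since its HCT116 controls were at 0.

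Without irradiation no difference between mixed cultures and HCT116 was detected in 4 of the 5 members. The log2 differences were 0.22 in TP73 (95% interval 0.03 to 0.40, adjusted p = 0.29), 0.03 in MDM2 (-0.08 to 0.14, adjusted p = 0.86), -0.18 in MDM4 (-0.31 to -0.05, adjusted p = 0.19) and 0.02 in PPM1D (-0.13 to 0.16, adjusted p = 0.95). At an unadjusted p under 0.05 there were 3 members, TP63, TP73 and MDM4. The share of all genes at that threshold was not counted, so this number has no background to be read against. After 10 Gy MDM2 was 1.16-fold higher in the mixtures (log2 difference 0.21, SE 0.054, adjusted p = 0.0096), while PPM1D was lower by 0.32 (log2 difference -0.32, SE 0.054, adjusted p = 0.00014). The MDM2 call was lost without the first HCT116 library (adjusted p = 0.052), the second mixture (adjusted p = 0.10) or the third mixture (adjusted p = 0.082). TP73 and MDM4 gave 0.06 (adjusted p = 0.83) and -0.07 (adjusted p = 0.52).

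In the test of the responses themselves, mixed minus HCT116, edgeR called 0 of 5 members, beside 0.83% of all genes. At an unadjusted p under 0.05 there were 2, MDM2 and PPM1D, and DESeq2 called 1, PPM1D. No share of all genes at an unadjusted p under 0.05 or by DESeq2 is given, so neither count can be judged against a background. The PPM1D difference was -0.34 (SE 0.090, 95% interval -0.51 to -0.16, adjusted p = 0.074) and that of MDM2 was 0.18 (95% interval 0.02 to 0.35, adjusted p = 0.35). DESeq2 gave PPM1D an adjusted p of 0.0094, and edgeR without the low-count filter gave 0.041. It also passed without the third NIR mixture (adjusted p = 0.021) or the first IR mixture (adjusted p = 0.049).

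Ratios within a library do not depend on its scaling. The ratio of MDM2 to MDM4 counts was 2.65, 2.78 and 2.70 in NIR MCF10A and 7.93, 8.58 and 8.59 after 10 Gy. In HCT116 it was 1.74, 1.72 and 1.85 and then 5.11, 5.84 and 5.53. In mixed cultures it went from 2.12, 2.06 and 1.98 to 5.99, 7.21 and 6.86. The shift towards MDM2 was of similar size in all 3 cultures, at 3.09-fold, 3.10-fold and 3.25-fold, with no overlap in any.

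The ratio of PPM1D to MDM2 set the lines apart. It went from 0.061 ± 0.0072 to 0.030 ± 0.0011 in MCF10A (SD, n = 3), a factor of 0.499, and from 0.230 ± 0.014 to 0.237 ± 0.013 in HCT116, a factor of 1.03 with overlapping libraries. Mixed cultures lay between, with a factor of 0.721. PPM1D over MDM4 increased 1.54-fold, 3.20-fold and 2.34-fold in MCF10A, HCT116 and mixed cultures. Of these 9 ratio comparisons, 8 gave an exact 2-sided permutation p of 0.1, the smallest possible with 3 against 3, and 1 (PPM1D over MDM2 in HCT116) gave 0.6. Adjusted over the 9 they were 0.1125 and 0.6, so that no ratio could pass the threshold.

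**Figure D3:**
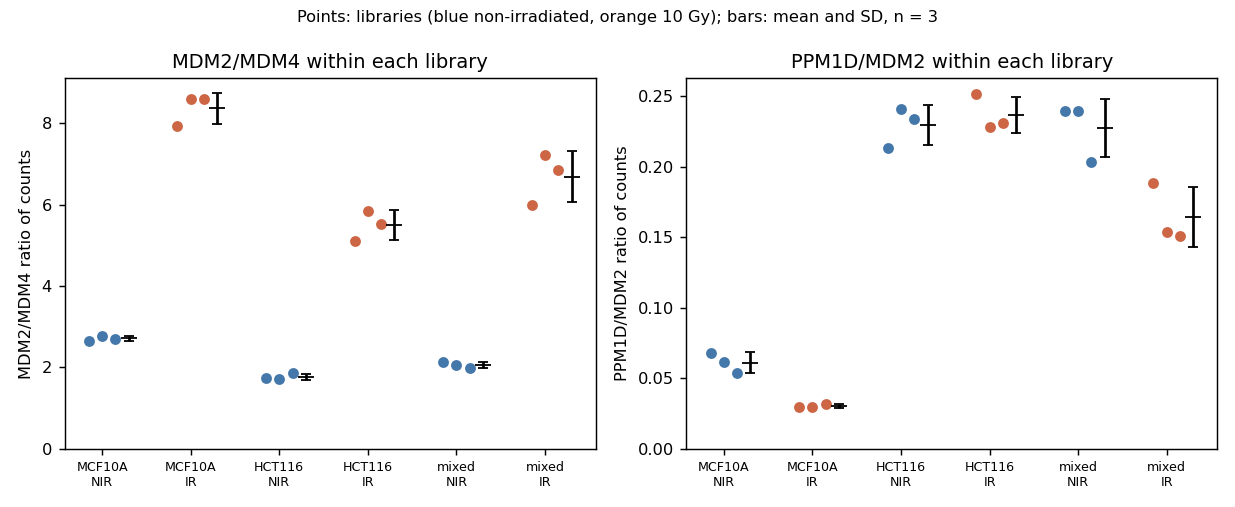
Ratio of MDM2 to MDM4 counts (left) and of PPM1D to MDM2 counts (right) in each library, on linear axes from 0, with the mean and SD of 3 libraries. The left ratio moves by 3.09-fold to 3.25-fold in every culture, and the right ratio drops in MCF10A but overlaps in HCT116.

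Levels of different genes were compared only per length, as CPM per kilobase of the union of annotated exons. That union can be longer than the transcripts expressed, and the annotation used for the counting is not stated. The order of the genes therefore holds for this length only. In NIR MCF10A the order was MDM2 (22.0), TP63 (14.6), MDM4 (9.81), PPM1D (3.54) and TP73 (0.542). In NIR HCT116 it was MDM2 (20.1), MDM4 (13.7), PPM1D (12.2), TP73 (2.84) and TP63 (0). On this scale irradiated HCT116 reached 53.2 for MDM2 and 33.2 for PPM1D, whereas MDM4 stood at 11.7, so that PPM1D passed MDM4 there. In irradiated MCF10A MDM2 reached 44.2 and PPM1D stayed at 3.53.

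Other p53 targets give the setting for MDM2 and PPM1D. Of 30 listed, 21 rose and 2 fell in MCF10A (median log2 fold change 0.48), while 27 of 29 tested rose in HCT116 (1.16) and 27 of 28 in mixed cultures (1.00). None fell in HCT116 or mixed cultures. Of all genes, 26.2%, 25.3% and 24% rose in MCF10A, HCT116 and mixed cultures, and 29.2%, 27.2% and 25.4% fell. The median of all genes was 0.00, 0.01 and 0.01. MDM2 in MCF10A (0.98) thus stood above its list's median there and PPM1D (-0.02) below it, and both stood above it in HCT116.

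CDKN1A, the cell-cycle inhibitor p21, had a log2 fold change of 1.76 in MCF10A (172 ± 10.4 against 590.4 ± 26.6 CPM, adjusted p = 1.1e-21) and of 2.33 in HCT116 (318 ± 39.3 against 1593 ± 90.2 CPM, adjusted p = 5.0e-17). TNFRSF10B, a death receptor, rose by 0.36 and 0.86 (adjusted p = 1.1e-08 and 2.4e-10), and RRM2B, a ribonucleotide reductase subunit, by 0.61 and 0.89 (adjusted p = 1.4e-12 and 1.7e-11). CCNG1, encoding cyclin G1, fell in MCF10A (-0.34, adjusted p = 3.8e-08) and rose in HCT116 (0.73, adjusted p = 3.5e-10). In mixed cultures the same 4 genes rose by 2.19, 0.80, 0.82 and 0.64. By the test of the difference of responses, 24 of the 30 targets rose more in HCT116 than in MCF10A and 2 less, with a median of 0.76. Among all 18179 genes tested, 2801 were called higher and 3980 lower in that difference.

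The kinases and regulators upstream of MDM2 and MDM4 moved down more often than up. In MCF10A 1 of 17 rose and 11 fell (median -0.20), in HCT116 1 of 18 rose and 10 fell (-0.22), and in mixed cultures 1 of 18 rose and 12 fell (-0.21). Beside them, 26.2%, 25.3% and 24% of all genes rose, and 29.2%, 27.2% and 25.4% fell. NPM1, a nucleolar chaperone that binds MDM2, fell by 0.85, 0.48 and 0.65 in MCF10A, HCT116 and mixed cultures (adjusted p = 5.6e-17, 5.9e-08 and 4.9e-09). PRKDC, the DNA-dependent protein kinase, fell by 0.50, 0.22 and 0.23 (adjusted p = 3.4e-12, 0.0012 and 0.0015). RPL5, a ribosomal protein that binds MDM2, fell by 0.32, 0.31 and 0.48 (adjusted p = 4.4e-07, 0.00012 and 3.1e-06). RPL11, which does the same, fell by 0.16 in MCF10A (adjusted p = 0.0010) and gave 0.06 and 0.01 in HCT116 and mixed cultures (adjusted p = 0.40 and 0.91).

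One further upstream gene was singled out after its values were seen. CDKN2A, among whose products p14ARF inhibits MDM2, had no count in any of the 6 MCF10A libraries. This allows up to 0.0304 CPM over the NIR group and 0.0338 CPM over the IR group (3 counts). Counts per gene do not separate p14ARF from other products of CDKN2A. The gene stood at 17.1 ± 0.675 CPM in NIR HCT116 and 9.91 ± 1.19 CPM in IR HCT116 (log2 fold change -0.78, adjusted p = 6.9e-06). The mixtures held 16.7 ± 0.766 and 11.2 ± 0.842 CPM.

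Among 16 other ligases and inhibitors that act on p53, p63 or p73, 4 rose and 6 fell in MCF10A (median -0.05), 5 rose and 6 fell in HCT116 (0.02), and 4 rose and 8 fell in mixed cultures (-0.16). Beside them, 26.2%, 25.3% and 24% of all genes rose in MCF10A, HCT116 and mixed cultures, and 29.2%, 27.2% and 25.4% fell. HUWE1, a large ubiquitin ligase, gave -0.01 in MCF10A (adjusted p = 0.86) and fell by 0.17 and 0.20 in HCT116 and mixed cultures (adjusted p = 0.012 and 0.0044). PPM1G, a phosphatase of the PPM1D family, fell by 0.53 in MCF10A (adjusted p = 4.0e-11), gave 0.03 in HCT116 (adjusted p = 0.65) and fell by 0.14 in mixed cultures (adjusted p = 0.027). UBE3A, the ligase used by papillomavirus E6 against p53, fell by 0.16 in MCF10A (adjusted p = 0.0057) and rose by 0.15 in HCT116 (adjusted p = 0.036). WWP1, a HECT-type ligase, rose by 0.25 in MCF10A (adjusted p = 0.00054) and gave 0.02 in HCT116 (adjusted p = 0.85). In mixed cultures UBE3A gave 0.11 and WWP1 -0.04 (adjusted p = 0.12 and 0.61).

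Basal epithelial genes known to depend on p63 were compared with TP63. Without irradiation 19 of 22 were lower in HCT116 than in MCF10A and 3 were higher, with a median log2 difference of -6.03 (all genes 0.05). Of all 16568 genes tested, 5974 were lower and 6415 higher. After 10 Gy 17 of 22 rose and 2 fell in MCF10A (median 0.54), where TP63 rose by 0.24. In HCT116, with TP63 at 0 to 4 counts, 16 of 20 tested rose and 1 fell (median 1.20). In mixed cultures 18 of 22 rose and 1 fell (1.59). The shares of all genes that rose were 26.2%, 25.3% and 24% in MCF10A, HCT116 and mixed cultures, and 29.2%, 27.2% and 25.4% fell.

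LAMA3 and LAMB3, which encode laminin chains of the basement membrane, were among the highest of the list. LAMA3 had a log2 fold change of 1.44 in MCF10A (1681 ± 56.9 against 4639 ± 170.0 CPM, adjusted p = 4.4e-22) and of 1.69 in HCT116 (23.2 ± 3.80 against 74.5 ± 2.53 CPM, adjusted p = 5.5e-13). LAMB3 rose by 1.17 and 0.50 (adjusted p = 2.4e-21 and 9.6e-05). KRT5, a basal keratin, stood at 2883 ± 133 and 2784 ± 75.9 CPM in MCF10A (-0.07, adjusted p = 0.099) and at 0.117 ± 0.152 and 1.54 ± 0.944 CPM in HCT116 (3.63, adjusted p = 0.00010). In mixed cultures LAMA3, LAMB3 and KRT5 rose by 1.70, 1.09 and 1.89, beside the higher share of MCF10A-specific RNA given above, whose part in these values was not tested.

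**Figure D4:**
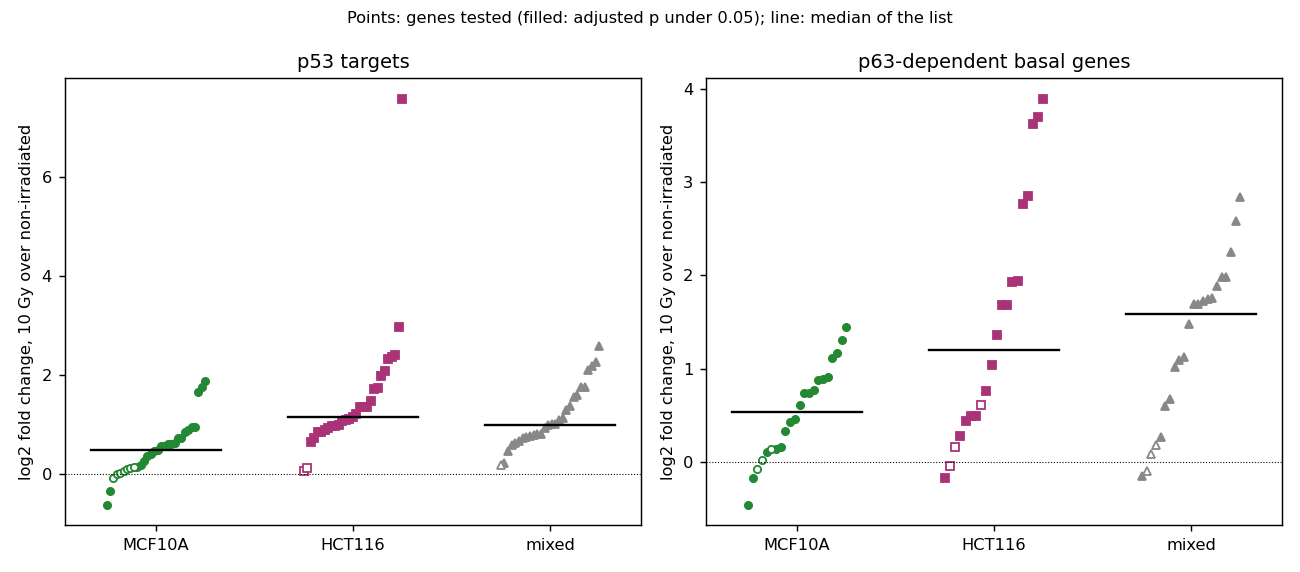
Log2 fold change, 10 Gy over non-irradiated, of each tested gene of the p53 target list (left) and of the p63-dependent basal list (right) in MCF10A, HCT116 and mixed cultures, filled where the adjusted p was under 0.05, with a line at the median. The target medians are 0.48, 1.16 and 1.00, and the basal medians are 0.54, 1.20 and 1.59.

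The genes whose levels ran most like each member were ranked over the 18 libraries by Pearson correlation of log2(CPM + 1) among 11311 genes with a mean of at least 5 CPM. The points share lines and treatments, so that a correlation mostly reflects the 6 group means. For TP63 they were PDPN (0.999), HTRA1 (0.998) and VEGFC (0.998), all at or near 0 in HCT116, and 709 genes reached 0.95. For TP73 they were DNMT3B (0.987), RBM47 (0.986) and RNFT2 (0.986), with 711 genes at 0.95 or more.

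MDM2 and MDM4 had far fewer genes running alongside them, 21 and 24 at 0.95 or more. Closest to MDM2 were SAMD9 (0.990), ZNFX1 (0.980) and CSNK1G1 (0.972). The group means of SAMD9 were 50.1 and 92.7 CPM in NIR and IR MCF10A, and 42.8 and 98.5 CPM in HCT116. Closest to MDM4 were PCID2 (0.974), TSPAN18 (0.969) and KIAA1958 (0.968).

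PPM1D had 418 such genes, led by GALNT5 (0.997), FDXR (0.997) and KLK7 (0.993). FDXR, a mitochondrial reductase and listed p53 target, showed the same pattern of group means: 17.0 and 18.6 CPM in MCF10A before and after 10 Gy, against 85.1 and 234.7 CPM in HCT116. GALNT5 and KLK7 were at or near 0 in MCF10A and reached 646 and 233 CPM in irradiated HCT116.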

How the data were processed

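RNA of 18 cultures was sequenced as poly(A)-selected mRNA, 150-base paired ends. The authors deposited raw counts per gene symbol, 1 table per library. Per the submitters' processing notes, fastp, STAR, featureCounts and GRCh38 were used; their options, the annotation, the strand setting and whether mates were counted singly are not given in the sources used here. Wrong splitting between overlapping or related genes can therefore not be checked.

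From these counts, CPM was computed as counts times 1e+06 over the library total. Tests used edgeR 4.0.16 in R 4.3.3 on all genes of the compared groups: filterByExpr (minimum count 10), TMM factors, the quasi-likelihood test, 2-sided, with Benjamini-Hochberg adjustment and a threshold of 0.05. The SE is the log2 fold change over the square root of F, and 95% intervals are 1.96 SE. Nothing says whether the 3 replicates came from separate thaws, so p-values measure the spread between these libraries. No 2 libraries of a group agreed within sampling noise (chi-squared per gene 2.49 to 7.57 on halved counts).

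MCF10A-specific genes had a mean of at least 20 CPM in MCF10A and under 1 CPM in every HCT116 library. Of each gene list, the 4 genes with the highest mean CPM were named, and for each member the 3 most correlated genes. Some results that fall under these rules are not reported here. The members and lists were chosen with earlier results of these data known. Promoters were RefSeq windows of GRCh38.p14, and 5 of 5 members matched by symbol; gene positions were from GENCODE 29. The half-site search kept the central 4 bases and was checked on all windows.

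Alternatives were RLE, upper-quartile and library-size scaling, DESeq2 1.42.0, no low-count filter, halved counts, leaving mitochondrial and the top 10 genes out of library sizes, all 18 libraries in 1 fit, a replicate block, and leaving out each library. The fits were tested on simulated data.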

Additional observations from a re-analysis of the deposited data

Results flagged for a closer look

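MDM2, MDM4 and PPM1D were singled out because their response to 10 Gy differed between HCT116 and MCF10A in the test of the difference itself (edgeR, interaction of line and irradiation). The difference of log2 fold changes, HCT116 minus MCF10A, was 1.40 for PPM1D, 0.35 for MDM2 and 0.34 for MDM4. Over 21 alternative fits each, these values ranged from 1.31 to 1.53, from 0.31 to 0.46 and from 0.30 to 0.48, and each fit called them. No change of PPM1D was detected in MCF10A, whereas all 3 irradiated HCT116 libraries lay above all 3 controls. MDM2 rose in both lines, and MDM4 fell less in HCT116.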

How the results depend on the processing

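Over 718 alternative fits of 44 member results, 20 changed the call and 10 changed the sign, and 31 results kept both throughout. Between mixed and HCT116 cultures without irradiation, DESeq2 called 0 members where edgeR called 1, because it gave TP63 no adjusted p. In the response difference mixed minus HCT116, DESeq2 and the fit without filter called 1 member (PPM1D), and leaving out a library gave 0 to 1. The sign changed only for values near 0 or resting on few counts: PPM1D in MCF10A (0.0606 with upper quartile, and -0.0716 to 0.0707 without single libraries); PPM1D in mixed against HCT116 without irradiation (-0.000563 with upper quartile, and -0.0211 to 0.0689 without single libraries); MDM2 between irradiated lines (-0.00877 to 0.0866 without single libraries); TP73 between irradiated mixed and HCT116 cultures (-0.00166 to 0.121 likewise); and the TP63 response differences (HCT116 minus MCF10A -0.23 to 3.60, mixed minus HCT116 -2.92 to 1.13), where the second irradiated HCT116 library holds all 4 counts. The cause was not tested.

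With the replicate block, the members called numbered 4, 4, 4, 5, 4, 1, 3, 3 and 0 over the 9 comparisons, as without it, and TP63 in mixtures differed by 0.688 points. The labels do not say that numbers pair libraries, and numbers were not read as pairs. Same-numbered libraries gave 45 correlations of their deviations, from -0.162 to 0.209, and 0 libraries correlated best with their own number throughout. The 3 over 0.1 all lay between HCT116 and mixed cultures of the same treatment (means 0.114 without irradiation and 0.101 after 10 Gy). Whether these cultures were paired is not stated, and the main fits did not use it. With the block, edgeR gave adjusted p = 1.0e-06 for MDM2 and 5.3e-08 for PPM1D between irradiated mixed and HCT116 cultures.

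Counts over all genes moved by over 1.5 times only in comparisons of mixed with HCT116 cultures: without irradiation from 146 higher and 189 lower to 319 and 397 with the block, to 308 and 363 without filter, to 271 higher with DESeq2 and 490 higher in 1 fit of all libraries; after 10 Gy from 596 lower to 957 with the block and 261 in 1 fit of all libraries. Upper-quartile and library-size scaling shifted the median of all genes between the lines by 0.20 without irradiation and raised the share of called genes that were higher from 51.8% to 62.4% and 62.2%; after 10 Gy the share went from 50.9% to 62.4%. In the MCF10A response it went from 47.4% to 57.5% with upper quartile, and in the response difference of the lines from 41.3% to 52.5% without mitochondrial and top 10 genes. For the response difference mixed minus HCT116, 123 higher and 27 lower genes became 253 and 83 without filter, and 117 lower with DESeq2. Leaving out single libraries also moved these counts by over 1.5 times in the comparisons of mixed with HCT116 cultures.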
